A study of Mus musculus with 78 samples.

Results

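The question was whether N-acetyl-cysteine (NAC) altered what an Npc1 antisense oligonucleotide (oligo) did to the liver transcriptome. It was answered per gene by a difference of differences: the oligo difference with NAC (Npc1 oligo + NAC minus control oligo + NAC) minus the oligo difference without NAC (Npc1 oligo minus control oligo). A positive value means that the Npc1 oligo stood higher over its control when NAC was given. The contrast used 20 of the 78 arrays of the series, 1 per mouse, in 4 groups of 5, and was tested on 11900 genes.

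All 20 mice were female Balb/cJ animals labelled Npc1+/+, 12 weeks old, and had been injected with oligos for 4 weeks from 8 weeks of age. The groups were Npc1 oligo + NAC, control oligo + NAC, Npc1 oligo and control oligo. NAC had been given over the same 4 weeks, and the original sample names of the NAC groups carry "2Xwk". The labels call both Npc1 oligo groups symptomatic and both control oligo groups asymptomatic. An oligo lowers Npc1 RNA without deleting the gene, and the cells it reaches are not stated. Livers were frozen or kept in RNAlater, and the labels do not say which sample was which or name an array batch. All values are on the log2 scale of the deposited table. In whole liver, fewer cells of a type and less RNA per cell cannot be told apart.

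NPC1 is a membrane protein of late endosomes and lysosomes that exports cholesterol delivered by lipoproteins, and its loss causes Niemann-Pick disease type C, in which hepatocytes and macrophages store lipid. NAC supplies cysteine, the limiting precursor of glutathione, and is used as an antioxidant and liver protectant. Antisense oligos pair with a transcript and direct its cleavage by RNase H.

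The hepatocyte identity genes averaged 10.9 to 11.1 in Npc1 oligo + NAC and 11.0 to 11.1 in control oligo + NAC, Npc1 oligo and control oligo livers, and no array had raised signal of pancreas, muscle, fat or gut genes (0 arrays over 1 log2 unit above the median). Across genes, the mean correlation of an array with its group mates was 0.983 to 0.991. The arrays of the Npc1 oligo + NAC group were the most spread, with a median within-group SD of 0.158, against 0.125 in control oligo + NAC, 0.117 in Npc1 oligo and 0.131 in control oligo livers. Npc1 oligo + NAC mouse 3 stood apart from its group. Its lipid-laden macrophage genes averaged 6.87, against 8.57 to 8.77 in the other 4 mice of that group, 6.56 to 6.79 in control oligo + NAC, 7.62 to 8.72 in Npc1 oligo and 6.42 to 6.75 in control oligo livers. Control oligo + NAC mouse 3 stood apart in another set of genes, described with them below.

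Npc1 itself measured 7.15, 7.51, 7.26, 6.68 and 6.93 in Npc1 oligo + NAC livers and 9.21, 9.96, 8.77, 9.04 and 8.96 in control oligo + NAC livers. Without NAC, its values were 7.16, 6.96, 7.25, 7.55 and 7.34 under the Npc1 oligo and 10.36, 9.98, 10.25, 10.22 and 10.27 under the control oligo. The Npc1 oligo groups overlapped, and every control oligo + NAC liver was below every control oligo liver. The oligo difference was -2.08 with NAC and -2.97 without it, so that the signal ratio left was 23.6% with NAC and 12.8% without. The difference of differences was 0.88 ± 0.21 (SE, limma, adjusted p = 0.0145, 95% interval 0.45 to 1.32). It stayed past the threshold without each of the 20 arrays in turn, and had an adjusted p of 0.0594 when the arrays of the 4 groups alone were fitted. Npc1 oligo + NAC mouse 3, at 7.26, lay within its group here.

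Over all genes, 575 of 11900 passed an adjusted p of 0.05 in the difference of differences (4.83%), 137 higher (1.15%) and 438 lower (3.68%). Counts of list members below are to be read against these shares. An unadjusted p under 0.05 was reached by 2491 genes (20.9%). The middle of the distribution was near 0, with a median of -0.03 and quartiles of -0.17 and 0.10. Calls were fewer, at 226, when only the 20 oligo arrays set the spread, in place of the 30 that also hold 5 untreated and 5 fasted mice of the same age, whose median SD was 0.107 and 0.0962. Of the 575 genes, 222 were called in both fits and 296 were called without each of the 20 arrays in turn. The total ran from 346 without control oligo + NAC mouse 2 and 373 without control oligo mouse 2 to 979 without control oligo + NAC mouse 3 and 1037 without Npc1 oligo + NAC mouse 4. It was 545 without Npc1 oligo + NAC mouse 3. Higher genes made up 23.8% of the calls, and 49.0% after quantile normalization, which called 344 higher and 358 lower. All 453 genes called under both scalings had the same sign.

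Among the 438 lower genes, the oligo difference of the group means had opposite signs with and without NAC in 311. Its median was -0.39 with NAC and 0.15 without it. These signs were counted without a threshold, and the choice of the lower genes by the difference of differences favours opposite signs. The Npc1 oligo + NAC group had the lowest mean of the 4 in 286 of the lower genes, and the control oligo + NAC group the highest in 284. Of the 137 higher genes, 87 had opposite signs, with medians of 0.28 with NAC and -0.28 without it. The oligo difference kept its sign and was larger with NAC in 111 lower and 30 higher genes, and was smaller with NAC in 16 lower and 20 higher genes. A difference of differences of at least 1 was reached by 46 lower and 7 higher genes. A group mean lay under the filter level in 32 of the 575 genes, where the size is less certain.

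**Figure D1:**
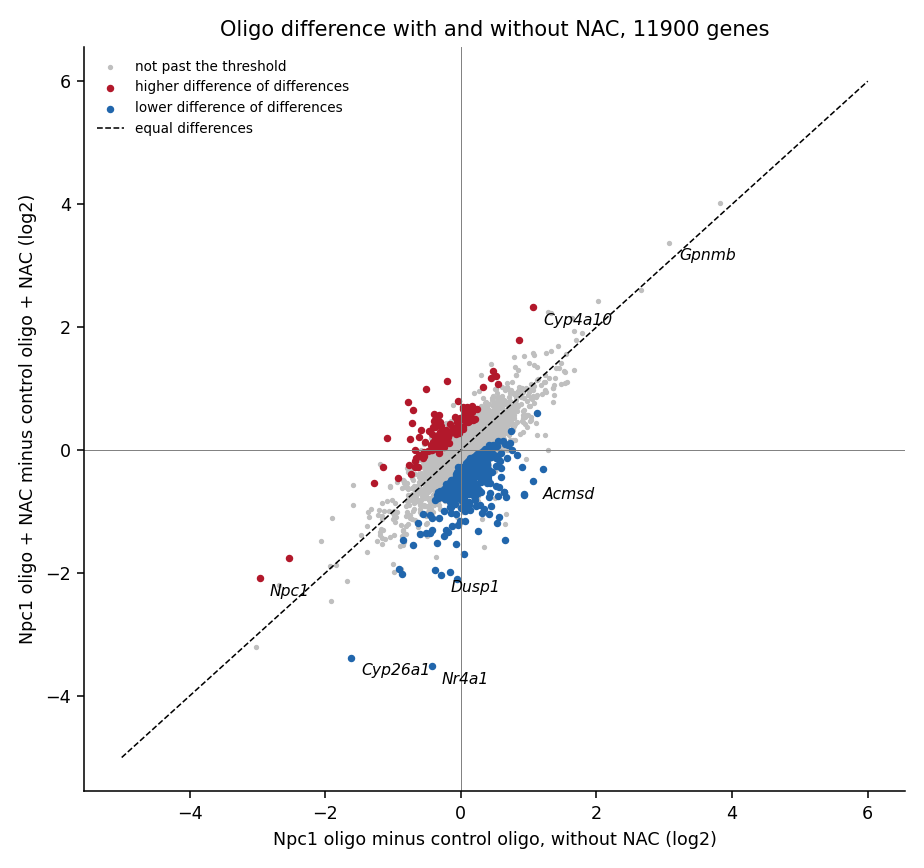
Oligo difference with NAC (vertical, log2) against that without NAC (horizontal, log2) for 11900 genes, 1 point per gene. The 137 higher genes (red) lie above the dashed line of equal differences and the 438 lower genes (blue) below it, and 311 of the lower genes have opposite signs on the 2 axes; both axes share no arrays.

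Immediate early genes, which neural, hormonal and stress signals switch on within minutes, included 3 of the 15 lowest genes. All 15 listed genes were tested, and 3 were lower and 0 higher, against 3.68% and 1.15% of all genes. Of the 15, 14 were below 0, with a list median of -0.72, against -0.03 over all genes. The list median was -0.39 without control oligo + NAC mouse 2 and -0.46 without Npc1 oligo mouse 4. Dusp1, a phosphatase that switches off MAP kinases, measured 8.59, 8.60, 7.93, 8.72 and 8.62 in Npc1 oligo + NAC livers and 10.79, 11.11, 9.95, 10.65 and 10.11 in control oligo + NAC livers. In mice without NAC it had 10.87, 10.39, 9.92, 11.48 and 10.84 under the Npc1 oligo and 11.16, 10.60, 11.32, 10.86 and 11.04 under the control oligo. The Npc1 oligo + NAC livers were below all 15 others, and the other 3 groups overlapped. The difference of differences of Dusp1 was -1.73 ± 0.33 (SE, adjusted p = 0.00234). Btg2, an antiproliferative gene, reached -2.04 (adjusted p = 0.0172) and Jun, a subunit of the AP-1 factor, -1.83 (adjusted p = 0.0168).

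The list's other members were wide in their spread. Fos, the partner of Jun in AP-1, had -0.72 with a 95% interval of -1.82 to 0.38, and Egr1, a zinc-finger factor, had -1.36 with an interval of -2.49 to -0.24 and an adjusted p of 0.145. Only 1 of the 3 calls, Dusp1, was made from the 20 arrays alone. Without control oligo + NAC mouse 3 the list had 6 lower genes. Nr4a1, an orphan nuclear receptor of the same class of genes, measured 5.28 to 5.90 in Npc1 oligo + NAC livers, against 6.75 in that mouse and 9.49 to 10.04 in the other 4 of its group. Nr4a1 had the lowest value of the named genes, -3.09 ± 0.81 (SE, adjusted p = 0.0237). Its adjusted p was up to 0.0538 without Npc1 oligo mouse 5 or control oligo + NAC mouse 2, each of which ended the call. Nr4a1 spread from 6.17 to 10.09 in Npc1 oligo and from 7.29 to 9.71 in control oligo livers.

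The genes of gluconeogenesis and the fasting response, which the liver raises under glucagon and glucocorticoids, were lower in 7 of 14 tested and higher in 0, with a median of -0.77. All 7 had their lowest mean in the Npc1 oligo + NAC group, as had 286 of all 438 lower genes. Tsc22d3, a glucocorticoid-induced leucine zipper protein, measured 8.27, 8.31, 8.11, 8.16 and 8.22 in Npc1 oligo + NAC livers and 9.28, 8.90, 8.89, 9.04 and 9.02 in control oligo + NAC livers. In the absence of NAC it stood at 9.03, 8.87, 9.22, 8.96 and 8.64 under the Npc1 oligo and 8.81, 8.58, 8.85, 8.91 and 8.53 under the control oligo. The Npc1 oligo + NAC livers lay below all other mice, and the 2 groups without NAC overlapped. Its difference of differences was -1.02 ± 0.14 (SE, adjusted p = 4.35e-05), and 0.000762 was its adjusted p from the 20 arrays alone.

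Igfbp1, a secreted binder of insulin-like growth factors that insulin represses, had -1.72 (adjusted p = 0.0157). Ppargc1a, a coactivator of gluconeogenic genes, had -1.36 (adjusted p = 0.0116). Foxo1, the insulin-regulated factor that drives several of these genes, had -0.83, the amino acid catabolic enzyme Tat had -0.80, and G6pc, the catalytic subunit of glucose-6-phosphatase, had -0.74. Per1, on this list and on that of the clock, had -0.84. Pck1, the other classic gluconeogenic enzyme, had -0.21 with an interval of -0.40 to -0.03 and an adjusted p of 0.175. From the 20 arrays alone 5 of the 7 calls were made. Leaving out single arrays gave 6 to 8 lower genes. The list level was 9.39 to 9.81 in Npc1 oligo + NAC livers, against 9.63 in control oligo + NAC mouse 3 and 10.12 to 10.32 in the other 4 of its group.

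**Figure D2:**
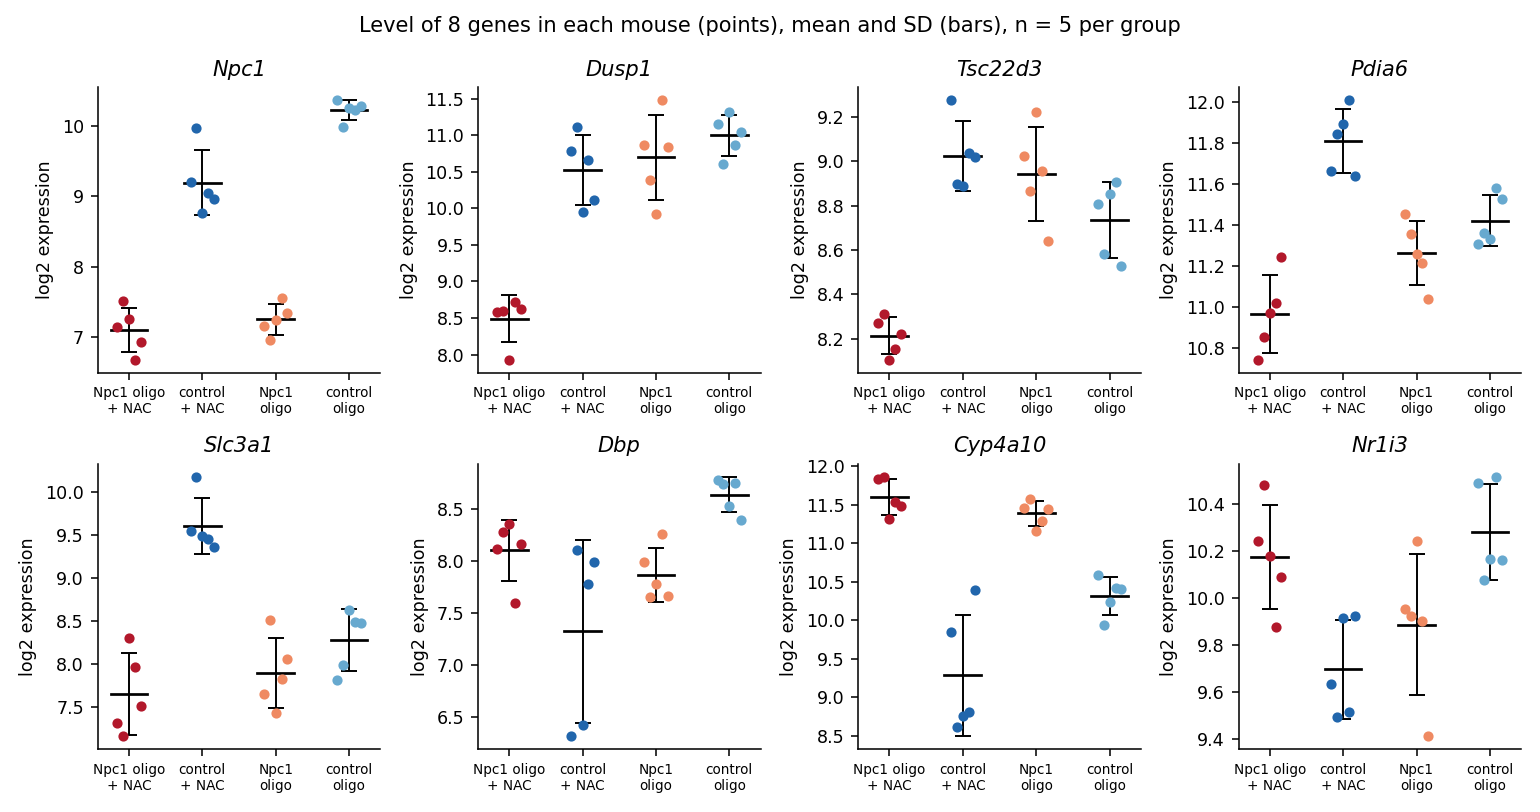
Log2 level of 8 genes in each mouse (points), with the mean and SD of each group of 5 (bars). The means of Dusp1, Tsc22d3 and Pdia6 are lowest in Npc1 oligo + NAC livers, that of Slc3a1 is highest in control oligo + NAC livers, and the control oligo + NAC mice with Dbp of 6.31 and 6.42 lie below all others.

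The endoplasmic reticulum (ER) stress list holds the chaperones and folding enzymes of the ER lumen and the factors of the unfolded protein response. Of its 18 genes, all tested, 12 were lower and 0 higher, and all 18 were below 0, from -0.83 to -0.18, with a median of -0.53. In 11 of the 12 the highest mean was that of the control oligo + NAC group, and in 9 the lowest was that of Npc1 oligo + NAC. Of all 438 lower genes, 284 had that highest group and 286 that lowest group. The Npc1 oligo + NAC and control oligo + NAC mice did not overlap in 9 of the 12, against 11.9% of all genes, and the 2 groups without NAC overlapped in all 12, against non-overlap in 15.8% of all genes. The 12 were chosen by their difference of differences, which favours a gap in 1 pair, so these shares are no like comparison.

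Pdia6, a protein disulfide isomerase, measured 10.74, 10.86, 10.97, 11.02 and 11.24 in Npc1 oligo + NAC livers and 11.67, 11.84, 11.89, 12.01 and 11.64 in control oligo + NAC livers. Without NAC it measured 11.46, 11.36, 11.26, 11.22 and 11.04 under the Npc1 oligo and 11.31, 11.36, 11.33, 11.58 and 11.53 under the control oligo. Control oligo + NAC mice were the highest 5 of the 20, and the Npc1 oligo + NAC group overlapped the Npc1 oligo group. The difference of differences was -0.69 ± 0.12 (SE, adjusted p = 0.00111). Pdia3, another disulfide isomerase, had -0.60, and Atf4, the factor translated when eIF2α is phosphorylated, had -0.59. Sdf2l1, a cofactor of ER chaperones, was the lowest of the list at -0.83 (adjusted p = 0.0255).

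Hspa5, the ER Hsp70 chaperone BiP, had -0.52 (adjusted p = 0.0149), Calr, a lectin chaperone, -0.49, Dnajc3, a cochaperone of BiP, -0.37, and Hsp90b1, the ER Hsp90, -0.35. Xbp1, a factor of the unfolded protein response, was nearest to 0 at -0.18. From the 20 arrays alone 5 of the 12 calls were made, and after quantile normalization 11 genes were lower. The count was 7 without control oligo mouse 1, Npc1 oligo mouse 2, control oligo + NAC mouse 2 or Npc1 oligo + NAC mouse 1, and from 9 to 14 without each of the other 16 mice. The list median stayed between -0.56 and -0.46 in those 20 fits. Sdf2l1, Dnajc3 and Hsp90b1 each lost their call without some single mice, 4 for Sdf2l1 and 7 for each of the other genes.

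ER chaperone promoters are known for the ER stress element, read here as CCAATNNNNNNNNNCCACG, bound by NF-Y and ATF6. It was searched on both strands of the RefSeq promoter windows (GRCm38.p6, 250 bases before to 50 after the start) after the values had been seen. It was found in 39 of 32851 windows (0.119%) and in 7 of the 16 ER stress genes with a window (43.8%), 5 of them among the 11 called genes with a window. These 5, shown because they are lower members that hold the element, are given as 100-base stretches with the match in capitals. They are chr2:34771984-34772083 (plus strand) for Hspa5, chr12:17266450-17266549 (plus) for Pdia6, chr8:84847035-84847134 (minus) for Calr, chr14:118937786-118937885 (plus) for Dnajc3 and chr10:86705595-86705694 (minus) for Hsp90b1.
Hspa5: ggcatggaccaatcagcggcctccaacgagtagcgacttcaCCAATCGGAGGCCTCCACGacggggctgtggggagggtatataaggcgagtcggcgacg
Pdia6: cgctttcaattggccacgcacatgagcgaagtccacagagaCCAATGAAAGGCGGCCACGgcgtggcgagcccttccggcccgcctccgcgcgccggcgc
Calr: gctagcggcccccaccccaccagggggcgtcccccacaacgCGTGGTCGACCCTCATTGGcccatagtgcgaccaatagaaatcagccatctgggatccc
Dnajc3: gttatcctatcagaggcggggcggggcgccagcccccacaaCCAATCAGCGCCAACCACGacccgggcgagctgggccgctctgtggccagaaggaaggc
Hsp90b1: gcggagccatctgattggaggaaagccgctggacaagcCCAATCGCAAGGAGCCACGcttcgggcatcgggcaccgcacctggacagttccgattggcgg
Each runs 5′ to 3′ along the gene, and in Calr the element lies on the opposite strand. The first base of the match lies 65 bases before the start in Hspa5, 98 in Pdia6, 162 in Calr, 105 in Dnajc3 and 212 in Hsp90b1, whose window holds a second match outside the stretch. Canx and Creld2 also hold the element and had -0.31 (adjusted p = 0.0517) and -0.54 (adjusted p = 0.186). A match describes these letters only.

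The circadian clock list moved in both directions: of 16 tested genes, 4 were higher and 3 lower, with a median of 0.02. The 4 higher genes were Dbp (1.55, adjusted p = 0.00604), Per3 (1.36, adjusted p = 0.000838), Tef (0.69) and Hlf (0.51). Dbp, Tef and Hlf are the PAR leucine zipper factors, an output arm of the clock, and Per3 is a period gene. The 3 lower genes were Nfil3, the repressor that competes with those factors for the same sites (-0.90, adjusted p = 0.0339), Per1, a period gene induced by light and glucocorticoids (-0.84, adjusted p = 0.0477), and Clock, an activator of the core loop (-0.46, adjusted p = 0.0332). Arntl, the partner of Clock, had -0.84 with an adjusted p of 0.0514.

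Dbp measured 8.11, 8.27, 8.36, 7.60 and 8.16 in Npc1 oligo + NAC livers and 6.31, 8.11, 6.42, 7.78 and 7.99 in control oligo + NAC livers. Without NAC, its values were 7.98, 7.65, 7.78, 8.26 and 7.66 under the Npc1 oligo and 8.78, 8.74, 8.53, 8.75 and 8.39 under the control oligo. Control oligo + NAC mice 1 and 3 were the 2 lowest of the 20, the groups with NAC overlapped, and the groups without NAC did not. Per3 measured 6.21 to 7.14 in Npc1 oligo + NAC livers, against 5.64 and 5.92 in the same 2 control oligo + NAC mice, again the lowest of the 20, and 6.28 to 6.51 in the other 3. The hour of collection is not given in the labels, and its part in these values was not tested.

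The 4 higher calls were made from the 20 arrays alone and without each array in turn, and none of the 3 lower ones was made from the 20 arrays alone. The lower count was 0 without control oligo mouse 2, control oligo mouse 4, Npc1 oligo mouse 2, control oligo + NAC mouse 1, Npc1 oligo + NAC mouse 3 or Npc1 oligo + NAC mouse 5. Per1 lost its call in 14 of the 20 fits, Nfil3 in 11 and Clock in 6, and after quantile normalization Per1 and Clock had adjusted p of 0.0692 and 0.0589. The D-box TTATGTAA, the site of the PAR factors and Nfil3, was searched separately in the same windows and strands. It was in 0.938% of all windows and in 1 of the 14 clock genes with a window, Per3, shown for that reason at chr4:151044816-151044915 (minus strand) with 2 matches in capitals.
Per3: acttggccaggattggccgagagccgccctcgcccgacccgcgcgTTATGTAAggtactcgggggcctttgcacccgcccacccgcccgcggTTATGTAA

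**Figure D3:**
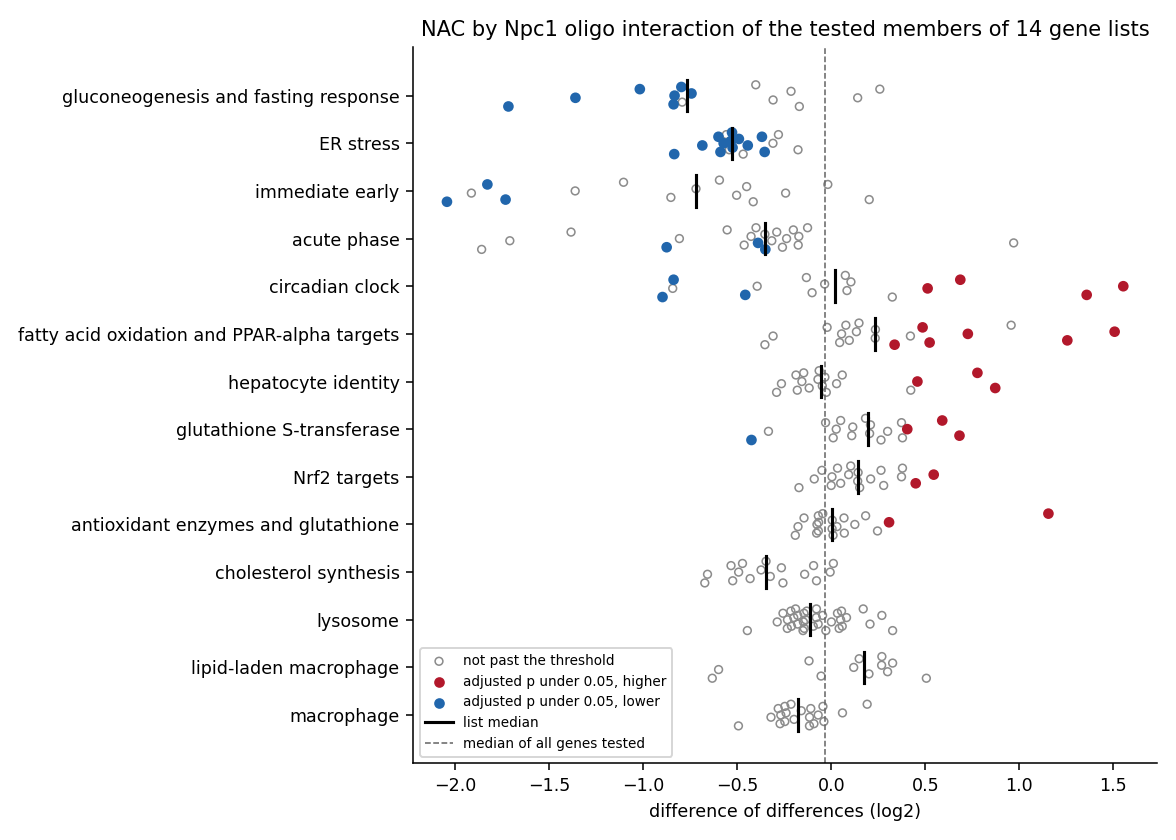
Difference of differences (horizontal, log2) of each tested member of 14 gene lists, filled where the adjusted p was under 0.05, with the list median as a black bar and the median of all genes (-0.03) as a dashed line. All 18 ER stress genes lie below 0, 6 of 19 fatty acid oxidation genes are called higher, and the lysosome and macrophage lists have no call.

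Fatty acid oxidation genes and targets of PPARα, the nuclear receptor that fatty acids activate, were higher in 6 of 19 tested and lower in 0, with a median of 0.23, which was 0.13 without Npc1 oligo mouse 5 and 0.14 without control oligo mouse 4 or control oligo + NAC mouse 4. All 6 had their highest mean in Npc1 oligo + NAC livers, as had 66 of all 137 higher genes. Cyp4a10, a fatty acid omega-hydroxylase, measured 11.83, 11.86, 11.32, 11.54 and 11.48 in Npc1 oligo + NAC livers and 9.85, 8.62, 8.75, 8.80 and 10.39 in control oligo + NAC livers. In mice without NAC it had 11.46, 11.57, 11.16, 11.29 and 11.45 under the Npc1 oligo and 10.59, 9.94, 10.23, 10.42 and 10.41 under the control oligo. Both Npc1 oligo groups lay above both control oligo groups and overlapped each other, and control oligo + NAC mice 2, 3 and 4 were the lowest of the 20. The oligo difference was 2.32 with NAC and 1.07 without it, and the difference of differences was 1.25 ± 0.31 (SE, adjusted p = 0.0172).

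Acot3, a peroxisomal acyl-CoA thioesterase, had 1.51 (adjusted p = 0.00505), Ehhadh, the peroxisomal bifunctional enzyme, 0.73 (adjusted p = 0.00256), and Plin2, which coats lipid droplets, 0.52. Ppara itself had 0.49 (adjusted p = 0.00757) and Cpt2, the inner carnitine palmitoyltransferase of mitochondria, 0.34. The mitochondrial thioesterase Acot2 (0.94) and the peroxisomal thiolase Acaa1b (0.99, adjusted p = 0.00018), not on the list, were also among the 15 highest genes. Acot, Cyp4a and Acaa1 genes have close paralogs whose probes may not be separable. The count was 6 or 7 without each array in turn and 4 of the 6 calls were made from the 20 arrays alone. Cyp4a10 (adjusted p = 0.0577) and Cpt2 (adjusted p = 0.0648) were not called there. The classic target Cpt1a had 0.15, Pdk4 had -0.35 and Fgf21 -0.31, none past the threshold.

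Of 18 hepatocyte identity genes tested, 3 were higher and 0 lower, with a median of -0.06. The 3 are transcription factors: Nr1i3, the constitutive androstane receptor, at 0.87 (adjusted p = 0.00259), Cebpa, a differentiation factor, at 0.78 (adjusted p = 0.000551), and Foxa2 at 0.46 (adjusted p = 0.0387), whose call was lost without any of 11 single mice. Cebpa measured 9.22 to 9.64 with Npc1 oligo + NAC, 8.96 to 9.28 with control oligo + NAC, 8.56 to 8.90 with Npc1 oligo and 8.86 to 9.38 with control oligo. Cyp2b10, the best known target of Nr1i3, was in the opposite direction. It measured 7.87 to 8.53 in Npc1 oligo + NAC, 10.01 to 10.65 in control oligo + NAC, 9.59 to 9.96 in Npc1 oligo and 10.31 to 11.24 in control oligo livers, so that no 2 groups overlapped except the 2 control oligo groups. Its difference of differences was -1.15 ± 0.20 (SE, adjusted p = 0.00135).

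Of 21 cytochrome P450 genes tested, 3 were higher and 1 lower, Cyp2b10, against 1.15% and 3.68% of all genes. The higher ones were Cyp2c37 (0.52), Cyp2b13 (0.51) and Cyp2d22 (0.28). The Cyp2c37 call was lost without any of 12 single mice and that of Cyp2d22 without any of 14. From the 20 arrays alone none of the 3 was called, with adjusted p of 0.108 for Cyp2c37, 0.0588 for Cyp2b13 and 0.11 for Cyp2d22. In bile acid handling, Nr0b2, the corepressor SHP that bile acids induce, was lower at -1.09 (adjusted p = 0.0258), and Akr1d1, a reductase of bile acid synthesis, higher at 0.50 (adjusted p = 0.0317), among 19 tested. The Nr0b2 call was lost without Npc1 oligo mouse 4 and the Akr1d1 call without any of 9 mice, and neither was made from the 20 arrays alone (adjusted p = 0.0742 and 0.0912). Cyp26a1, which degrades retinoic acid, was already low under the Npc1 oligo. It measured 3.87 to 4.73 in Npc1 oligo + NAC, 7.33 to 8.29 in control oligo + NAC, 4.51 to 5.37 in Npc1 oligo and 6.10 to 7.29 in control oligo livers. Its difference of differences was -1.76 ± 0.39 (SE, adjusted p = 0.00844), and since both Npc1 oligo groups lie under the filter level of 5.54 the size is uncertain.

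The pathways around glutathione, to which NAC supplies cysteine, held calls in both directions, to be read against 4.83% of all genes. Of 19 targets of Nrf2, the factor that senses oxidants, 2 were higher and 0 lower: Abcc4, an efflux pump (0.54, adjusted p = 0.0319), and Ephx1, a microsomal epoxide hydrolase (0.45, adjusted p = 0.0392). Both calls depended on single mice, Abcc4 on any of 7 and Ephx1 on any of 10, and Ephx1 was not called from the 20 arrays alone (adjusted p = 0.112). Gclc and Gclm, the subunits of the rate-limiting enzyme of glutathione synthesis, had 0.14 (95% interval -0.11 to 0.40) and 0.10 (-0.08 to 0.28). Nqo1, a quinone reductase and standard Nrf2 target, had 0.14 (-0.23 to 0.52). These intervals include 0 and changes of up to the upper bounds given.

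Of 20 antioxidant enzyme and glutathione genes, 2 were higher and 0 lower, with a median of 0.00. Txnip, which binds and inhibits thioredoxin and responds to glucose, measured 10.14 to 10.73 in Npc1 oligo + NAC, 9.39 to 10.71 in control oligo + NAC, 10.09 to 10.62 in Npc1 oligo and 10.69 to 11.42 in control oligo livers. The groups with NAC overlapped and those without NAC did not, and the difference of differences was 1.15 ± 0.27 (SE, adjusted p = 0.0129). Gpx4, the peroxidase of membrane lipid hydroperoxides, had 0.31 (adjusted p = 0.0444), a call lost without any of 13 mice and from the 20 arrays alone (adjusted p = 0.104). Among 18 glutathione S-transferases 3 were higher, Mgst3 (0.68), Gstt2 (0.59, adjusted p = 0.00234) and Gstt1 (0.40), and 1 lower, Gstm7 (-0.42, adjusted p = 0.0187, and 0.0675 after quantile normalization).

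In sulfur amino acid metabolism, which makes cysteine, Cbs was the 1 lower gene of 15 tested, with 0 higher. Cbs, the enzyme that commits homocysteine to cysteine synthesis, measured 10.43, 10.33, 10.59, 10.18 and 10.54 in Npc1 oligo + NAC livers and 11.11, 11.21, 11.10, 11.08 and 10.91 in control oligo + NAC livers. In the absence of NAC it stood at 10.72, 10.85, 10.89, 10.65 and 10.70 under the Npc1 oligo and 10.74, 10.93, 10.83, 10.87 and 11.00 under the control oligo. The groups with NAC did not overlap, those without NAC did, and the difference of differences was -0.55 ± 0.10 (SE, adjusted p = 0.00234). Cth, the next enzyme of the route, had -0.31 (adjusted p = 0.159) and Cdo1, which oxidizes cysteine, -0.21 (adjusted p = 0.145).

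Slc3a1, the heavy subunit of a transporter of cystine and basic amino acids, was among the 15 lowest genes. It measured 7.32, 7.16, 8.30, 7.96 and 7.51 in Npc1 oligo + NAC livers and 9.55, 10.17, 9.48, 9.46 and 9.36 in control oligo + NAC livers. Without NAC it measured 7.66, 8.51, 7.43, 7.82 and 8.06 under the Npc1 oligo and 7.81, 7.99, 8.63, 8.48 and 8.48 under the control oligo. The 5 control oligo + NAC mice lay above the other 15, whose groups overlapped, and the difference of differences was -1.57 ± 0.29 (SE, adjusted p = 0.00234).

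Metals showed 1 lower gene in each of 2 lists, to be read against 3.68% of all genes. Mt1, a metallothionein that binds zinc and copper, had -0.72 (adjusted p = 0.0259, lost without Npc1 oligo mouse 2, and 0.058 after quantile normalization and 0.0583 from the 20 arrays alone), the 1 lower gene of 8, while Mt2 had -0.46 (adjusted p = 0.161). Tfrc, the transferrin receptor, had -1.18 (adjusted p = 0.00451), the 1 lower gene of 15 in iron regulation. Tfrc measured 8.65 to 9.30 in Npc1 oligo + NAC, 8.68 to 9.70 in control oligo + NAC, 9.17 to 10.14 in Npc1 oligo and 8.30 to 9.11 in control oligo livers. The groups with NAC overlapped and those without NAC did not.

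Acute phase genes encode secreted proteins that inflammatory cytokines raise, and their list median was -0.35. Of 21 tested, 3 were lower and 0 higher, against 3.68% and 1.15% of all genes. The 3 were Saa4, a constitutive serum amyloid A (-0.88, adjusted p = 0.0191), the heme binder Hpx (-0.39, adjusted p = 0.0139) and Cp, the copper-carrying ferroxidase (-0.35, adjusted p = 0.0172, and 0.0686 after quantile normalization). The highest mean of each was that of control oligo + NAC, as in 284 of all 438 lower genes. The mean level of the list was 11.26 to 11.62 in Npc1 oligo + NAC, 11.82 to 12.17 in control oligo + NAC, 10.49 to 11.70 in Npc1 oligo and 10.74 to 11.41 in control oligo livers. The count was 5 without Npc1 oligo mouse 3 or Npc1 oligo + NAC mouse 4. Hpx and Cp were also called from the 20 arrays alone, and Saa4 was not (adjusted p = 0.0691).

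Neutrophil markers stood beside them, with 1 lower gene, Retnlg (-1.11, adjusted p = 0.0144), and 0 higher of the 4 tested. Retnlg was not called from the 20 arrays alone (adjusted p = 0.0583). Its mean was 6.47 in control oligo + NAC livers. The means of the other groups, from 5.23 to 5.51, lay under the filter level of 5.54, so the size is uncertain. All 4 tested neutrophil genes were below 0, from -1.27 to -0.75, with a median of -0.94. All 4 had an unadjusted p under 0.05, against 20.9% of all genes. The mean of the list was highest in control oligo + NAC livers, at 5.86. A gene that passes the filter through that group is favoured to lie below 0, so the shared sign is only a description. After quantile normalization 2 were lower. Of the 13 listed, 9 did not pass the filter on low values. The mean level of the 13 was 5.37 to 6.08 in Npc1 oligo + NAC, 5.63 to 6.07 in control oligo + NAC, 5.00 to 5.71 in Npc1 oligo and 5.30 to 5.41 in control oligo livers. The part of these cells in the acute phase values was not tested. The neutrophil count was 3 without Npc1 oligo + NAC mouse 4 and 2 without control oligo + NAC mouse 3 or Npc1 oligo mouse 1.

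No gene of the lysosome, lipid-laden macrophage or macrophage lists was called. Of 34 lysosome genes tested, 0 passed the threshold, with 7 at an unadjusted p under 0.05, against 20.9% of all genes, a median of -0.11 and a median half-width of the 95% interval of 0.23. The lysosomal protease Ctsd had -0.15 (interval -0.44 to 0.15), the peptidase Tpp1 -0.20 (adjusted p = 0.104) and the membrane protein Lamp2 -0.26 (adjusted p = 0.114). The list level was 8.93 to 9.55 in Npc1 oligo + NAC, 8.86 to 8.98 in control oligo + NAC, 9.28 to 9.50 in Npc1 oligo and 8.79 to 8.96 in control oligo livers. From the 20 arrays alone, 0 lysosome genes were called, and 1 was higher after quantile normalization. Without Npc1 oligo + NAC mouse 4, 1 was lower. Without Npc1 oligo + NAC mouse 3, whose level of 8.93 lay below the 9.37 to 9.55 of the other 4 in its group, the list median was -0.04.

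Of 12 lipid-laden macrophage genes and of 20 macrophage genes tested, 0 passed the threshold in either list, with 2 and 1 at an unadjusted p under 0.05, and 0 in either list from the 20 arrays alone or after quantile normalization. The median half-width of the 95% interval was 0.81 in the lipid-laden macrophage list and 0.42 in the macrophage list. Both were wider than the 0.23 of the lysosome list. Gpnmb, a membrane glycoprotein of lipid-laden macrophages, measured 9.61, 9.70, 6.32, 9.70 and 9.78 in Npc1 oligo + NAC livers and 5.82, 5.49, 5.53, 5.75 and 5.67 in control oligo + NAC livers. Without NAC, its values were 9.59, 7.61, 7.59, 9.13 and 9.78 under the Npc1 oligo and 5.72, 5.57, 5.72, 5.83 and 5.50 under the control oligo. Every Npc1 oligo liver lay above every control oligo liver with and without NAC, and mouse 3 of the Npc1 oligo + NAC group was the lowest under the Npc1 oligo. The difference of differences was 0.30 (interval -0.94 to 1.54, adjusted p = 0.819), and 0.97 without that mouse (adjusted p = 0.135). Leaving out other single mice gave Gpnmb 0.01 to 0.56, with 0.01 without Npc1 oligo mouse 3 and 0.02 without Npc1 oligo mouse 2. The lipid-laden macrophage median was 0.17, and it ran from -0.01 without Npc1 oligo mouse 3 to 0.57 without Npc1 oligo + NAC mouse 3. Without Npc1 oligo + NAC mouse 4, 1 lipid-laden macrophage gene was lower. The 2 of smallest p were the tetraspanin Cd9 (-0.60, adjusted p = 0.0783) and the scavenger receptor Cd36 (0.51, adjusted p = 0.233), and among macrophage genes Mpeg1 (-0.49, adjusted p = 0.174) and the marker Adgre1 (-0.32, adjusted p = 0.311). The macrophage marker Cd68 had -0.21 (interval -0.79 to 0.36), and the list median was -0.18, against -0.03 without Npc1 oligo + NAC mouse 3, -0.10 without Npc1 oligo mouse 5 and -0.11 without control oligo + NAC mouse 2.

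**Figure D4:**
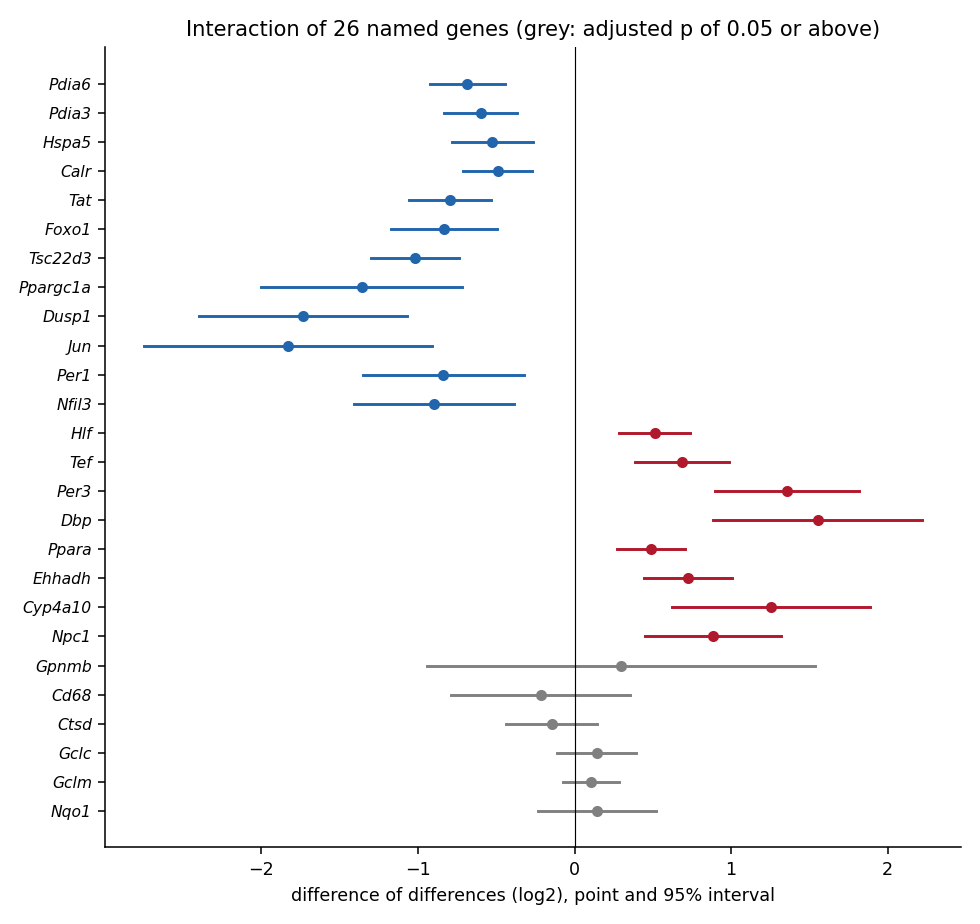
Difference of differences (horizontal, log2) of 26 named genes as points, with 95% intervals as lines. Blue genes are lower and red genes higher at an adjusted p under 0.05, and the grey intervals of Gpnmb, Cd68, Ctsd, Gclc, Gclm and Nqo1 include 0.

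Cholesterol synthesis enzymes had 0 of 17 past the threshold, 8 at an unadjusted p under 0.05 and 0 in the fit of 20 arrays, and 16 of 17 were below 0, with a median of -0.35. The 2 of smallest p were Dhcr7, the last reductase of the pathway (-0.53, adjusted p = 0.0817), and Pmvk, the phosphomevalonate kinase (-0.43, adjusted p = 0.148). The mean level of the list was 8.37 to 8.95 in Npc1 oligo + NAC and 9.30 to 9.86 in control oligo + NAC livers, and 8.21 to 8.89 in Npc1 oligo and 8.92 to 9.33 in control oligo livers. The oligo groups did not overlap with or without NAC, and the median oligo difference was -0.86 with NAC and -0.47 without it. Leaving out control oligo + NAC mouse 3 or Npc1 oligo + NAC mouse 4 brought 1 gene past the threshold.

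Several of the remaining lowest genes belong to single steps of metabolism. Acmsd, which diverts tryptophan breakdown away from NAD synthesis, had -1.57 ± 0.21 (SE, adjusted p = 3.75e-05). It measured 6.04 to 6.66 in Npc1 oligo + NAC, 6.84 to 7.09 in control oligo + NAC, 7.50 to 7.83 in Npc1 oligo and 5.79 to 7.03 in control oligo livers. Npc1 oligo livers were below their controls with NAC and above them without it, with no overlap in either pair. Chka, the first kinase of phosphatidylcholine synthesis, had -1.51 (adjusted p = 0.00185) and likewise differed in sign, with an oligo difference of -0.31 with NAC and 1.20 without it.

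The p53-induced Trp53inp1 (-1.75, adjusted p = 0.00548), the polo-like kinase Plk3 (-1.67, adjusted p = 0.00898) and the glucocorticoid-induced Ras protein Rasd1 (-1.67) were also among the 15 lowest genes as ranked here. So were Rasgef1b (-1.57), Tmc7 (-1.66) and Phf11c (-2.12). Trp53inp1, Plk3 and Rasgef1b were lowest in control oligo + NAC mouse 3 among its group, at 9.98, 8.11 and 8.34. Trp53inp1 and Btg2 were the 2 lower genes of 11 p53 targets tested, with 0 higher, against 3.68% and 1.15% of all genes. The Phf11c call was lost without control oligo + NAC mouse 1 or 4. The smallest p of all genes was that of H1f2, a linker histone named here after its value was seen. It measured 7.52 to 7.99 in Npc1 oligo + NAC, 8.66 to 9.07 in control oligo + NAC, 8.18 to 8.49 in Npc1 oligo and 7.71 to 8.26 in control oligo livers, and its difference of differences was -1.46 ± 0.14 (SE, adjusted p = 2.55e-07). The groups with NAC did not overlap, and those without NAC overlapped in 1 mouse each.

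Among the highest genes outside the lists above were Krt23, a keratin listed as a bile duct marker (1.34, adjusted p = 0.00825), the pseudogene Cyp2d37-ps (1.28), the carboxylesterase Ces1d (0.93, adjusted p = 0.00021), the carbonic anhydrase Car14 (0.91), Inmt, an indolethylamine methyltransferase (0.88, adjusted p = 6.15e-05), and Pnldc1, an exoribonuclease (0.86). Krt23 measured 5.57 to 6.93 in Npc1 oligo + NAC and 4.81 to 5.52 in control oligo + NAC livers, without overlap. Without NAC it measured 4.98 to 6.24 under the Npc1 oligo and 5.52 to 6.19 under the control oligo. It was the 1 of 6 tested bile duct markers past the threshold. The control oligo + NAC mean of Krt23 (5.23) lay under the filter level of 5.54. So did the means of Pnldc1 in control oligo + NAC (5.43) and Npc1 oligo (5.39) livers, and both sizes are uncertain. Inmt measured 11.28 to 11.77 in Npc1 oligo + NAC, 11.67 to 12.09 in control oligo + NAC, 11.07 to 11.31 in Npc1 oligo and 12.15 to 12.52 in control oligo livers. Its oligo difference was -0.27 with NAC and -1.15 without it, the same sign and smaller with NAC.

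The amino acid response list had 3 lower genes of 14 tested and 0 higher, which were Igfbp1, Atf4 and Cars, a cysteinyl-tRNA synthetase (-0.36, adjusted p = 0.0404, a call lost without any of 13 mice). Of 12 cytosolic heat shock genes 2 were lower and 0 higher, the Hsp40 cochaperone Dnajb1 (-0.89, adjusted p = 0.0143) and the Hsp110 family member Hspa4l (-0.50, adjusted p = 0.0332, a call lost without any of 13 mice). That list had 4 lower genes without control oligo + NAC mouse 3 and 1 without each of 11 other single mice. From the 20 arrays alone 1 gene of each of these lists was called, Atf4 (adjusted p = 0.0348) and Dnajb1 (adjusted p = 0.0485).

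Single calls, each named after its value was seen, came from 5 further lists. The scavenger receptor Marco (-0.57) was the 1 lower gene of 8 resident Kupffer cell markers, the ornithine carrier Slc25a15 (-0.55) of 7 urea cycle genes, and the histidine ammonia-lyase Hal (-0.42) of 14 zonation genes. The phospholipid remodelling enzyme Lpcat3 (0.44) was the 1 higher gene of 8 liver X receptor targets, and the lectin Lgals4 (0.70) of 3 gallbladder and gut genes. None of these 5 genes was called from the 20 arrays alone, with adjusted p from 0.0516 for Marco to 0.0958 for Lgals4. The Hal call was also lost without any of 11 single mice and after quantile normalization (adjusted p = 0.085), that of Lgals4 without any of 9 mice, and that of Lpcat3 without control oligo mouse 1 or Npc1 oligo + NAC mouse 1. Of 18 genes with a sex bias in liver, 2 were higher, Acot3 and Cyp2b13, and 3 lower, Egfr, the receptor of epidermal growth factor (-1.12), C8a, a complement component (-0.72), and Mup3, a major urinary protein (-0.38), whose call was lost without any of 11 mice and from the 20 arrays alone (adjusted p = 0.0911). The other 21 of the 47 lists had no call in either direction, among them collagen and fibrosis (22 genes, 2 at an unadjusted p under 0.05), interferon response (15 genes, 0) and respiratory chain (27 genes, 6, with 6 higher after quantile normalization).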

How the data were processed

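Per the labels' protocols, RNA of each liver was run on its own Affymetrix mouse array. The deposited log2 values, from 1.79 to 14.6, were used as given. Per the submitters' processing notes, the tools include RMA and Partek 6.5, with no role stated for either. Array medians of the 20 oligo arrays were 5.35 to 5.55, and the number of mice limits the precision. Of 35556 probe sets, 21789 had 1 gene symbol, 1621 several and 12146 none; only the first kind was named. Each gene was its brightest probe set (19938 genes, 999 with several). A gene was tested if 4 or more of 30 arrays exceeded 5.54, the overall median. limma 3.58.1 (R 4.3.3) fitted 1 mean per group over the 30 arrays of the 12-week set, with eBayes, two-sided tests and Benjamini-Hochberg adjustment over 11900 genes. An adjusted p-value was called past the threshold under 0.05. The procedure was tested on simulated data. The 47 gene lists and their members were chosen with earlier results of these data known, and list counts are descriptions. Named genes were Npc1, the 15 highest and 15 lowest called genes, and up to 4 called members of each list described (2 of smallest p where none was called). The 15 highest and 15 lowest were taken among called genes with at least 1 group mean above the filter level. Clone and predicted-gene names were left out of that ranking. Hspa5, Calr, Dnajc3, Hsp90b1, Creld2, Canx, Xbp1, Foxo1, Tat, G6pc, Pck1, Ppara, Cpt2, Cpt1a, Pdk4, Fgf21, Tef, Hlf, Clock, Arntl, Fos, Egr1, Gclc, Gclm, Nqo1, Cth, Cdo1, Mt2, Gpnmb, Cd68, Ctsd, H1f2, Egfr, C8a, Mup3, Marco, Slc25a15, Hal, Lpcat3 and Lgals4 were named after their values were seen. Replicate numbers were not taken to pair the mice. The correlation of deviations in 30 same-numbered pairs ran from -0.33 to 0.26, and 6 were over 0.1. Mice with different numbers were not compared, so these values cannot exclude a pairing. Promoter sequences are from RefSeq, without chromosome 18. The alternatives were other thresholds, filters, scalings, probe rules, moderation, weights, arrays in the fit, a replicate block and each oligo array left out.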

Additional observations from a re-analysis of the deposited data

Results flagged for a closer look

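In 14 of 292 sets of 5 mice (1 gene in 1 group), 1 mouse lay apart by more than Dixon's 95% critical value. Chance flags about 5% of such sets. Control oligo + NAC mouse 3 accounted for 7: it was the highest for Cyp2d37-ps at 10.2, and the lowest for Nr4a1 at 6.75, Trp53inp1 at 9.98, Plk3 at 8.11, Rasgef1b at 8.34, Hspa4l at 7.95 and Per1 at 6.82. Npc1 oligo + NAC mouse 3 was the lowest for Dusp1 at 7.93 and for Gstt1 at 10.4, and mouse 4 of that group was the highest for Nfil3 at 7.79. Control oligo + NAC mouse 2 was the highest for Slc3a1 at 10.2, and Npc1 oligo mouse 5 for Chka at 8.50. Control oligo mouse 1 was the lowest for Acmsd at 5.79, and control oligo mouse 5 the highest for Ppargc1a at 9.32.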

How the results depend on the processing

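Of the 65 genes named by the rule and past the threshold, none turned in sign under the settings run, 57 remained past it with no filter on low values, 59 after quantile normalization, 60 with the replicate block, 41 with only the 20 oligo arrays and 12 with all 78 arrays. The total of 575 became 226 with only the 20 oligo arrays (63 higher, 163 lower), 66 with all 78 arrays (4 higher, 62 lower), 156 at an adjusted p under 0.01 (39 and 117) and 53 with a difference of at least 1 (7 and 46). Quantile normalization gave 344 higher and array weights 244. Without single replicates the total ran from 346 to 1037, the higher genes from 89 to 230 and the lower genes from 251 to 850. Npc1 kept 0.88 and had an adjusted p of 0.0594 with only the 20 oligo arrays, 0.543 with all 78 arrays, and 0.0145 as reported, which is above 0.01, and it lies below a difference of 1. Without single replicates, the differences of differences that are not called and turned in sign ran from -0.33 to 0.0603 for Cd68, from -0.22 to 0.00227 for Ctsd (both highest without Npc1 oligo + NAC mouse 3) and from -0.00723, without Npc1 oligo + NAC mouse 4, to 0.28 for Nqo1. With the replicate block, 528 genes were called (121 higher, 407 lower), but whether the numbers pair the mice is not known. Leaving out arrays with signal of another organ gave no value, since no array had it. The cause of these shifts was not tested.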
